A study of Mus musculus with 7 samples.

Results

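Genes for neuropeptides and for the proteins that package and process them were examined in ribosome-bound RNA from cells of the mouse medial prefrontal cortex (mPFC) that had been active during cocaine or during shock. The set holds 33 genes, matched by symbol to probe sets with a single gene symbol. Of these, 31 were measured among 22180 genes, each through 1 probe set, and Agrp and Pcsk2 were not analysed here.

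Per the labels, all mice carried a Cre-dependent GFP tag on their ribosomes and Cre driven by Arc, a gene that neurons switch on with activity, and all received tamoxifen around the stimulus. The cocaine group (15 mg/kg for 2 days, 4 arrays numbered 4, 5, 6 and 7) was set against the shock group (20 shocks of 0.5 mA lasting 2 s, for 2 days, 3 arrays numbered 4, 5 and 6). The comparison asks whether peptide transcripts on ribosomes differ between cells active in a rewarding and in an aversive experience. Ribosomes of the labelled cells were pulled down with an anti-GFP antibody, and several cell types may be among them. RNA carried over from unlabelled cells was not measured, and fewer cells of a type and less RNA per cell cannot be told apart. Strain, age, sex and the number of mice behind an array are not given in the labels, and p-values measure only the spread between arrays, which may be technical in part. Unlabelled tissue RNA and unstimulated mice were not used here, so no enrichment over whole mPFC was measured.

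Neuropeptides are made as larger precursors that enter dense-core vesicles, where convertases cut them, carboxypeptidase E (Cpe) trims the ends and peptidylglycine alpha-amidating monooxygenase (Pam) amidates many of the products. Granins such as Chga and Chgb help to form these vesicles. In cortex, cholecystokinin is made by pyramidal cells and interneurons, other peptides mark small interneuron classes, and many of the best known ones, such as orexin, vasopressin and oxytocin, belong to hypothalamic neurons.

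Cyclic AMP response element binding protein and AP-1, a dimer of Fos and Jun proteins, carry activity signals to many neuropeptide promoters, and the Arc-based labelling selects active cells. The promoters below are therefore shown for the genes whose window holds the TGACGTCA element of the first factor, and for Nts, the most variable of the genes, and Pmch, which hold the TGACTCA element of AP-1 (TGAGTCA on the other strand). Both motifs were searched on both strands, do not overlap each other here, and are in capitals. Windows run from 250 bases before to 50 bases after the annotated start (RefSeq, GRCm38.p6), 5′ to 3′ along the gene. The Cartpt window lies at chr13:99900634-99900933, minus strand, that of Chgb at chr2:132781392-132781691, plus strand, that of Nts at chr10:102490369-102490668, minus strand, and that of Pmch at chr10:88090822-88091121, plus strand.
Cartpt: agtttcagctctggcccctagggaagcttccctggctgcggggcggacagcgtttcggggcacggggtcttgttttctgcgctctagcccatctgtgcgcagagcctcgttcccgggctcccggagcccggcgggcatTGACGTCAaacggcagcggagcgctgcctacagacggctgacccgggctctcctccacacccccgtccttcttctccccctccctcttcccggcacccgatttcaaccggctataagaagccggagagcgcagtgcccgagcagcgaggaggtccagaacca
Chgb: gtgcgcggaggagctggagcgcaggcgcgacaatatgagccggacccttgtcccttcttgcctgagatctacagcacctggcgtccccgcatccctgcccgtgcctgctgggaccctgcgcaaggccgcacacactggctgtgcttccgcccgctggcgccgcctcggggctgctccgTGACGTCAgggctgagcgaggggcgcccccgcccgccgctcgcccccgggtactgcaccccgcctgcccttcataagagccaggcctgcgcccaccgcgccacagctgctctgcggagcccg
Nts: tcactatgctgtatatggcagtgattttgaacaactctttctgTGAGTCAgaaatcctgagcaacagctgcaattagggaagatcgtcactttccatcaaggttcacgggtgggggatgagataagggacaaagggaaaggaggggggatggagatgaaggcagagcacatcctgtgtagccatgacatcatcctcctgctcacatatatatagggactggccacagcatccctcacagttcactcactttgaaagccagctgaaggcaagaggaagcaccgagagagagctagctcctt
Pmch: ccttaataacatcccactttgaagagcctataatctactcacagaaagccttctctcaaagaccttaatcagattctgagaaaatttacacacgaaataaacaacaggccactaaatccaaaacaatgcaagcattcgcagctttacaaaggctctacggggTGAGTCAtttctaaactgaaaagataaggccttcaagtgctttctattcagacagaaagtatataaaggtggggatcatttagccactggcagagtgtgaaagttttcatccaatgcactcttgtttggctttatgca
The element starts 112 bases before the start of Cartpt, 72 before that of Chgb, 207 before that of Nts and 88 before that of Pmch. Promoter windows were found for 28 of the 31 genes (30 windows). TGACGTCA was in those of 2 genes, against 1.79% of all 32851 windows. TGACTCA was in those of 5 genes (Nms, Nmu, Nts, Pcsk1n and Pmch), against 5.2% of all windows. A match describes these letters only. On the arrays, Cartpt, Chgb, Nts and Pmch differed between the groups by -0.033, -0.0044, -0.23 and 0.17 on the log2 scale (cocaine minus shock), none past the adjusted threshold below.

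Across the set, levels in the cocaine and shock groups were close. The mean was higher in the cocaine group for 17 of the 31 genes and lower for 14, and over all genes 50.9% were higher and 48.9% lower. The median difference was 0.0092 on the log2 scale, against 0.0016 over all 22180 genes, and single differences ran from -0.23 (Nts) to 0.17 (Pmch). None of the 31 genes passed limma's adjusted p threshold of 0.05 over all genes, where 0.0% of the genes were called (adjusted p from 0.938 to 0.993 for the 31). At an unadjusted p under 0.05 limma gave 1 of the 31, Pmch, where 3.1% of all genes lay. That count was 0 with trend and robust moderation, with dim genes left out, and without cocaine array 4, cocaine array 7, shock array 4 or shock array 5. It was 1 without cocaine array 6, where the gene was Npvf, and 3 without shock array 6, where the genes were Cartpt, Hcrt and Pmch. The groups overlapped for all 31 genes, and for all genes 2.37% did not overlap. The sign of the median turned with cocaine array 6 left out (-0.0084) or shock array 4 left out (-0.0086).

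The intervals give the size of change in array signal that these values leave room for. The 95% confidence interval of the difference lay within 1.5-fold either way for 30 of the 31 genes, as it did for 94.2% of all genes. The exception was Nts, with an interval of -0.86 to 0.39. Values are log2 levels of 1 probe set per gene, so a level cannot be compared between genes. Olfactory, vomeronasal and trace amine receptor genes, which cortex hardly uses, served as a guide to background. Of their means, 95% lay under 5.45, and 25 of the 31 genes had a mean above it, against 62.3% of all genes. The 6 others, Hcrt, Pmch, Nmu, Nms, Npvf and Kiss1, are called dim. All 6 are among the 30 genes above, and near background a narrow interval may not bound the change in a transcript. Values shared exactly between arrays also narrow the intervals of Rln3 (1 value on 6 arrays) and Kiss1 (1 value on 5 arrays).

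**Figure D1:**
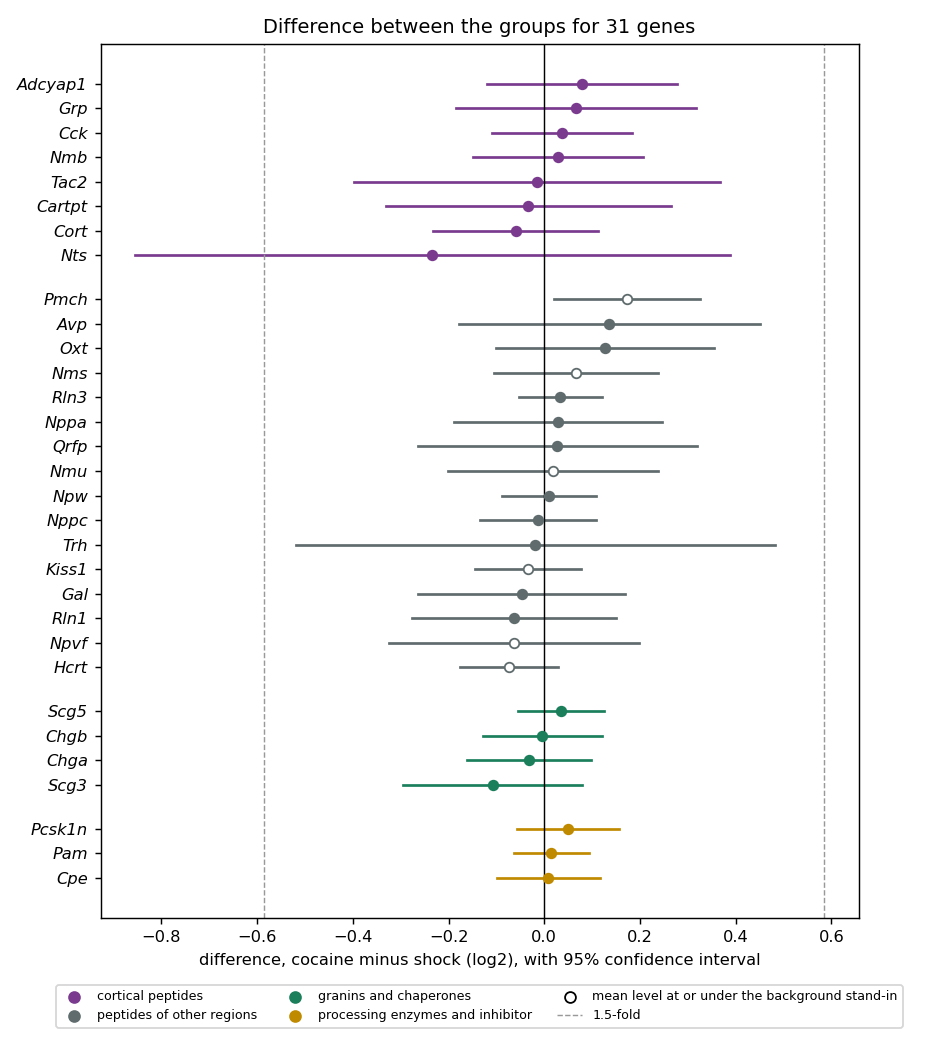
Difference between cocaine and shock (log2, horizontal axis) for 31 genes in rows grouped by role, with points for limma's estimate and bars for its 95% confidence interval. Open points mark dim genes and dashed lines mark 1.5-fold. The bar of Nts alone passes a dashed line, and that of Pmch is the 1 bar that leaves out 0.

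As a check of the tissue, all 7 measured excitatory cortical neuron markers had means above the background level (8.16 to 12.17), and 7 of 8 inhibitory markers did. Striatal markers were also above it, 5 of 5, and all 5 had a higher mean in the cocaine group (median difference 0.17). Means were lower there for 12 of 12 vascular and 9 of 9 astrocyte markers (medians -0.27 and -0.16), and 11 of the 12 vascular and all 9 astrocyte markers were above the background level. None of these markers passed the adjusted threshold (limma, smallest adjusted p = 0.938). At an unadjusted p under 0.05 limma gave 5 of 12 vascular, 3 of 5 striatal and 0 of 9 astrocyte markers, and the groups did not overlap for 3, 3 and 0 of them. Over all genes these shares were 3.1% and 2.37%. The part of these cell types in the values of the 31 genes was not tested. Cocaine array 6 stood apart from the other arrays, holding the single highest value for 19.6% and the single lowest for 20.8% of all genes, more than any other array. It held the single highest value for 8 of the 31 genes and the lowest for 2. Shock array 4 held the single lowest value for 10 of the 31, against 12.9% of all genes, and the highest for 2.

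The peptide genes known from cortical neurons showed no common direction. Of 8, 4 had a higher and 4 a lower mean in the cocaine group, with a median difference of 0.0059, and 0 passed at an unadjusted or adjusted p under 0.05 (limma). Cck, the precursor of cholecystokinin and an abundant cortical peptide, had levels of 11.69, 11.44, 11.55 and 11.58 on the cocaine arrays, against 11.54, 11.48 and 11.57 on the shock arrays. The shock values lay inside the range of the cocaine values. Cck averaged 11.57 ± 0.10 in the cocaine group (SD, n = 4) and 11.53 ± 0.049 in the shock group (SD, n = 3), a difference of 0.037 (SE 0.061, 95% interval -0.11 to 0.18, limma adjusted p = 0.951). Without cocaine array 4 the difference was -0.0038.

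Nts, the precursor of neurotensin, a peptide known for its ties to dopamine neurons, varied more between arrays than any other gene of the set. Its levels were 6.88, 7.59, 7.54 and 7.13 on the cocaine arrays, against 7.02, 7.58 and 7.95 on the shock arrays. Shock array 6 was highest, and low values occurred in both groups, on cocaine arrays 4 and 7 and on shock array 4. The means were 7.28 ± 0.34 in the cocaine group (SD, n = 4) and 7.52 ± 0.47 in the shock group (SD, n = 3), a difference of -0.23 (SE 0.26, limma adjusted p = 0.938). Its standard deviation within groups, 0.39, was at percentile 98.8 of all genes. Leaving out shock array 6 gave a difference of -0.018, and leaving out shock array 4 gave -0.48.

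Tac2, which encodes the precursor of neurokinin B, spread widely as well. It read 8.50, 8.73, 8.65 and 8.29 on the cocaine arrays, against 8.22, 8.75 and 8.70 on the shock arrays. The lowest arrays of both groups lay near each other, cocaine array 7 and shock array 4, and the group means differed by -0.016 (95% interval -0.40 to 0.37), with a range of -0.19 to 0.082 when each array was left out. Cartpt, the precursor of cocaine- and amphetamine-regulated transcript, named for its induction by psychostimulants in rat striatum, measured 8.29, 8.42, 8.33 and 8.31 on the cocaine arrays, against 8.24, 8.18 and 8.70 on the shock arrays. Shock array 6 was the highest and the other 2 shock arrays were the lowest, so the cocaine arrays all lay between them. Cartpt averaged 8.34 ± 0.057 in the cocaine group (SD, n = 4) and 8.37 ± 0.29 in the shock group (SD, n = 3), a difference of -0.033 (95% interval -0.33 to 0.27, limma adjusted p = 0.977). Leaving out shock array 6 turned it to 0.13, and leaving out shock array 5 gave -0.13.

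Adcyap1 encodes the precursor of PACAP, a peptide that raises cyclic AMP in its target cells. Its levels were 6.69, 6.92, 6.66 and 6.66 on the cocaine arrays, against 6.53, 6.71 and 6.73 on the shock arrays, with cocaine array 5 above all others and shock array 4 lowest. The difference of 0.079 (SE 0.083, limma adjusted p = 0.938) was 0.016 without cocaine array 5. Grp, the precursor of gastrin-releasing peptide, had 7.64, 7.47, 7.38 and 7.31 on the cocaine arrays, against 7.46, 7.19 and 7.51 on the shock arrays. Cocaine array 4 was highest and shock array 5 lowest, with a difference of 0.066 (95% interval -0.19 to 0.32). It was -0.032 without shock array 5.

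Nmb, for neuromedin B, a relative of gastrin-releasing peptide, read 6.88, 6.89, 6.77 and 6.92 on the cocaine arrays, against 6.67, 6.95 and 6.89 on the shock arrays. Only shock array 4 and cocaine array 6 fell below the rest, and the difference was 0.028 (-0.054 without shock array 4). Cort, for cortistatin, a relative of somatostatin made by cortical interneurons, gave 5.57, 5.35, 5.57 and 5.43 on the cocaine arrays, against 5.65, 5.47 and 5.50 on the shock arrays. These values lay near the background level, and shock array 4 was highest. The difference was -0.060 (95% interval -0.23 to 0.11, limma adjusted p = 0.939), and -0.0052 without shock array 4.

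**Figure D2:**
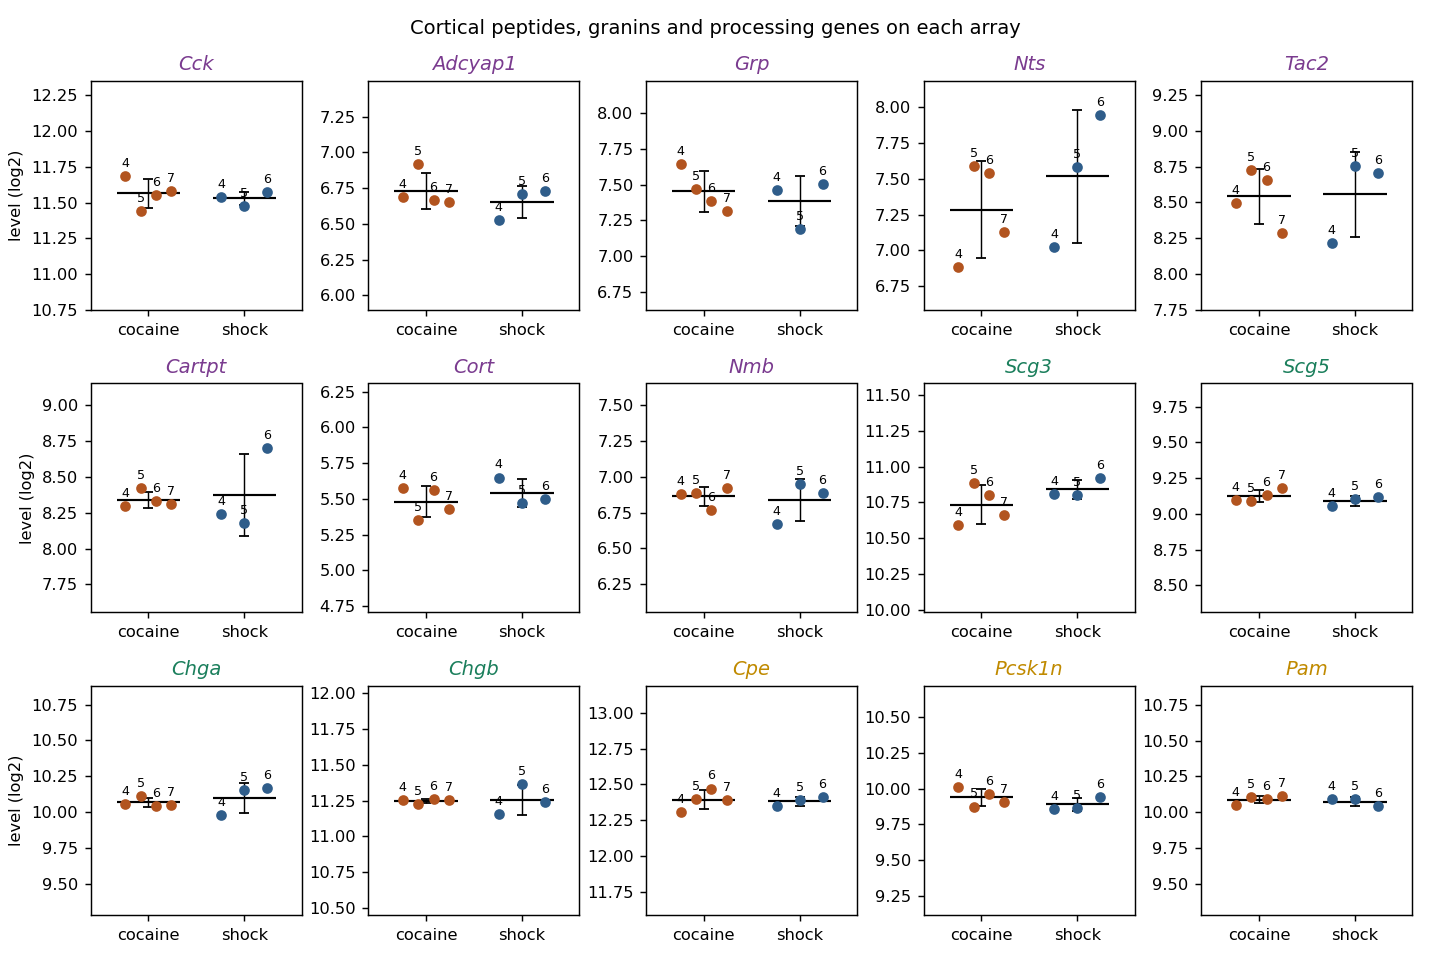
Level (log2, vertical axis, of equal height in every panel) of 15 genes on each array, with cocaine left of shock, array numbers above the points, and black lines for the mean ± SD. Gene names are coloured by role (purple for cortical peptides, green for granins and chaperones, ochre for processing genes). Nts runs from 6.88 to 7.95, while Pam stays between 10.04 and 10.11.

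Granins and the chaperone of the convertase Pcsk2 had close levels in both groups. Of 4 genes 1 had a higher and 3 a lower mean in the cocaine group, with a median difference of -0.018, and limma called 0. The median was -0.073 with shock array 4 left out and 0.017 with shock array 5 left out. Chga, chromogranin A, had levels of 10.06, 10.11, 10.04 and 10.05 on the cocaine arrays, against 9.98, 10.15 and 10.17 on the shock arrays. Shock array 4 was lowest and shock array 6 highest, with the cocaine arrays between. The difference was -0.032 (SE 0.054, limma adjusted p = 0.952), or -0.092 when shock array 4 was left out and 0.0029 when shock array 6 was.

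Chgb, chromogranin B, read 11.25, 11.23, 11.26 and 11.25 on the cocaine arrays, against 11.15, 11.37 and 11.24 on the shock arrays. The 4 cocaine arrays were nearly equal, and shock arrays 5 and 4 lay above and below them. Chgb averaged 11.25 ± 0.015 in the cocaine group (SD, n = 4) and 11.25 ± 0.11 in the shock group (SD, n = 3), a difference of -0.0044 (95% interval -0.13 to 0.12). The sign of that difference turned without shock array 5 (0.051) and after quantile normalization (0.0031) or median centring (0.0069).

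Scg3, secretogranin III, which helps to sort granins into vesicles, gave 10.59, 10.89, 10.80 and 10.66 on the cocaine arrays, against 10.81, 10.80 and 10.92 on the shock arrays. Cocaine arrays 4 and 7 were low, and cocaine array 5 was in the range of the shock arrays. The difference of -0.11 (SE 0.079, 95% interval -0.30 to 0.079, limma adjusted p = 0.938) ran from -0.16 to -0.060 when each array was left out, lowest without cocaine array 5 and nearest 0 without cocaine array 4. Scg5, the chaperone 7B2 that Pcsk2 needs to mature, read 9.10, 9.09, 9.13 and 9.18 on the cocaine arrays, against 9.05, 9.10 and 9.12 on the shock arrays. Its 7 values spanned 0.13, and the difference was 0.035 (95% interval -0.054 to 0.12), with 0.016 when shock array 4 was left out and 0.017 when cocaine array 7 was.

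The processing enzymes and the inhibitor had the lowest median spread of the 4 roles. All 3 measured genes had a slightly higher mean in the cocaine group, with differences from 0.0084 to 0.049, and limma called 0. Cpe, which removes basic residues from peptide ends, had levels of 12.31, 12.40, 12.47 and 12.39 on the cocaine arrays, against 12.35, 12.39 and 12.41 on the shock arrays. Cocaine array 6 was highest and cocaine array 4 lowest, so all shock values fell between cocaine values. Cpe averaged 12.39 ± 0.066 in the cocaine group (SD, n = 4) and 12.38 ± 0.031 in the shock group (SD, n = 3), a difference of 0.0084 (95% interval -0.10 to 0.12, limma adjusted p = 0.985). The sign turned after quantile normalization (-0.00033) and without cocaine array 6 (-0.018).

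Pam, which amidates the C-terminus of peptides such as cholecystokinin, read 10.05, 10.10, 10.09 and 10.11 on the cocaine arrays, against 10.09, 10.09 and 10.04 on the shock arrays. The 7 values spanned 0.070, and the standard deviation within groups, 0.028, was at percentile 6.06 of all genes. Exactly the same value was held by 3 arrays (cocaine array 6 and shock arrays 4 and 5), which lowers that spread. The difference was 0.015 (95% interval -0.064 to 0.093). Pcsk1n, the gene of proSAAS, which inhibits the convertase Pcsk1, had 10.01, 9.88, 9.96 and 9.91 on the cocaine arrays, against 9.86, 9.86 and 9.94 on the shock arrays. Cocaine array 4 was highest, and the difference was 0.049 (SE 0.045, limma adjusted p = 0.938), or 0.026 without that array. A further probe set assigned to both Eras and Pcsk1n was not used.

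Cortical peptide genes varied more between arrays of a group than the packaging and processing genes did, at mostly lower signal. The standard deviation within groups was above the all-gene median of 0.093 for 7 of 8 cortical peptide genes, for 1 of 4 granins and chaperones (Scg3) and for 0 of 3 processing genes. The median standard deviations were 0.14, 0.069 and 0.054, against 0.077 over the 13821 genes above the background level. Mean levels ran from 5.51 to 11.55 in cortical peptides, 9.11 to 11.25 in granins and chaperones and 9.92 to 12.39 in processing genes. Cck, the highest of the 8 cortical peptides, had a standard deviation of 0.083, under the all-gene median. Of the 16 measured peptide genes of other regions, 10 were above that median (median 0.13). No test was made of this contrast, and the part of signal level in it was not tested.

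Of the 16 measured peptide genes known chiefly from other brain regions or from other organs, 9 had a higher and 7 a lower mean in the cocaine group, with a median difference of 0.014. Limma called 0 at the adjusted threshold and 1 at an unadjusted p under 0.05, against 3.1% of all genes at the latter. Avp and Oxt, which lie next to each other in the genome and encode the precursors of vasopressin and oxytocin, both peaked on cocaine array 5. Avp had levels of 8.40, 8.79, 8.43 and 8.24 on the cocaine arrays, against 8.18, 8.40 and 8.40 on the shock arrays. Oxt had 6.52, 6.92, 6.59 and 6.77 on the cocaine arrays, against 6.59, 6.54 and 6.59 on the shock arrays. The value 8.40 of Avp was exactly the same on cocaine array 4 and shock arrays 5 and 6. The value 6.59 of Oxt was the same on cocaine array 6 and shock arrays 4 and 6. Such ties lower the spread behind the intervals. The differences of 0.14 and 0.13 (95% intervals -0.18 to 0.45 and -0.10 to 0.35) were 0.029 and 0.054 without that array. Limma's adjusted p was 0.938 for both.

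Pmch, the precursor of melanin-concentrating hormone, a peptide of lateral hypothalamic neurons, was dim, with 4.22, 4.03, 4.28 and 4.14 on the cocaine arrays, against 3.98, 3.96 and 4.05 on the shock arrays. Cocaine array 5 lay below shock array 6 and the other cocaine arrays lay above all shock arrays. Pmch averaged 4.17 ± 0.11 in the cocaine group (SD, n = 4) and 3.995 ± 0.048 in the shock group (SD, n = 3). The difference was 0.17 (SE 0.064, 95% interval 0.021 to 0.33), with limma's unadjusted p = 0.0312 and adjusted p = 0.938. An exact two-sided permutation over the 35 splits of the arrays, which doubles the smaller one-sided p, gave p = 0.114. A single split is a share of 0.0286, so after doubling no gene could fall under 0.05 in this permutation. The difference ran from 0.14 to 0.22 when each array was left out. Limma's unadjusted p was above 0.05 with cocaine array 4 (0.0738), cocaine array 6 (0.0601), cocaine array 7 (0.0502), shock array 4 (0.0846) or shock array 5 (0.0927) left out, and with trend and robust moderation (0.0532).

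Trh, for thyrotropin-releasing hormone, read 7.17, 7.07, 7.28 and 7.62 on the cocaine arrays, against 7.46, 6.84 and 7.61 on the shock arrays, a spread at percentile 97.0 of all genes. Shock array 5 was lowest, while cocaine array 7 and shock array 6 were highest. The difference of -0.019 (95% interval -0.52 to 0.48) became -0.25 with shock array 5 left out and 0.14 with shock array 6 left out. Gal, for galanin, measured 6.01, 6.10, 6.14 and 5.76 on the cocaine arrays, against 6.05, 6.05 and 6.05 on the shock arrays. Cocaine array 7 was low and the 3 shock arrays held the same value, with a difference of -0.047 (0.034 without cocaine array 7).

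The natriuretic peptide genes Nppa and Nppc, known from heart and from vessels and brain, had differences near 0. Nppa gave 6.06, 5.71, 5.70 and 5.86 on the cocaine arrays, against 5.83, 5.75 and 5.83 on the shock arrays. Nppc gave 7.03, 7.10, 7.15 and 7.002 on the cocaine arrays, against 7.09, 7.02 and 7.14 on the shock arrays. Cocaine array 4 was highest for Nppa and cocaine array 6 for Nppc, and the differences were 0.028 and -0.013. Without cocaine array 4 the Nppa difference was -0.046.

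Qrfp, for an RF-amide peptide of hypothalamus, had 5.65, 5.62, 5.92 and 5.43 on the cocaine arrays, against 5.48, 5.77 and 5.63 on the shock arrays. Cocaine arrays 6 and 7 formed the top and the bottom, and the difference was 0.028 (-0.061 without cocaine array 6). The relaxin genes Rln1 and Rln3 were close to background. Rln1 read 5.51, 5.81, 5.86 and 5.85 on the cocaine arrays, against 5.82, 5.82 and 5.81 on the shock arrays, with cocaine array 4 lowest. Rln3, known from brainstem neurons, read 5.65, 5.65, 5.65 and 5.65 on the cocaine arrays, against 5.65, 5.55 and 5.65 on the shock arrays, with 1 shared value on all arrays but shock array 5. Npw, for neuropeptide W, had 5.99, 6.05, 6.03 and 6.05 on the cocaine arrays, against 5.94, 6.07 and 6.05 on the shock arrays. Its 7 values spanned 0.12. The differences of these 3 genes were -0.063, 0.033 and 0.0092, and the sign for Rln1 turned without cocaine array 4 (0.020). The difference of Rln3 was 0 without shock array 5, and that of Npw -0.029 without shock array 4.

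Among the dim genes, Hcrt, for the orexin precursor of lateral hypothalamus, read 4.81, 4.78, 4.81 and 4.81 on the cocaine arrays, against 4.96, 4.86 and 4.81 on the shock arrays. Shock array 4 was highest, and the difference was -0.073 (95% interval -0.18 to 0.029), or -0.031 without that array. Nms, for neuromedin S, gave 5.07, 5.08, 5.34 and 5.08 on the cocaine arrays, against 5.07, 5.08 and 5.08 on the shock arrays, and cocaine array 6 alone stood above the rest. Its difference of 0.066 was 0.00079 without that array. Npvf, for an RF-amide peptide that restrains gonadotropins, gave 3.39, 3.42, 3.78 and 3.32 on the cocaine arrays, against 3.52, 3.53 and 3.57 on the shock arrays. Cocaine array 6 was highest again, and without it the difference of -0.063 was -0.16. Nmu (neuromedin U) and Kiss1 (kisspeptin) differed by 0.018 and -0.034. Nmu averaged 4.80 ± 0.17 in cocaine (SD, n = 4) and 4.78 ± 0.018 in shock (SD, n = 3), and Kiss1 averaged 4.43 ± 0.074 in cocaine (SD, n = 4) and 4.46 ± 0 in shock (SD, n = 3). Levels under the background stand-in do not say that a gene is absent.

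As a marker of tissue from that neighbourhood, 8 hypothalamic transcription factor genes had means of 5.31 to 6.53, 7 of them above the background level. Their mean deviations per array were 0.028, 0.0000080, -0.064 and -0.0023 on the cocaine arrays, against -0.070, 0.042 and 0.066 on the shock arrays. On cocaine array 5, which had the Avp and Oxt peaks, these genes were at their mean. Their part in the Avp and Oxt values was not tested.

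**Figure D3:**
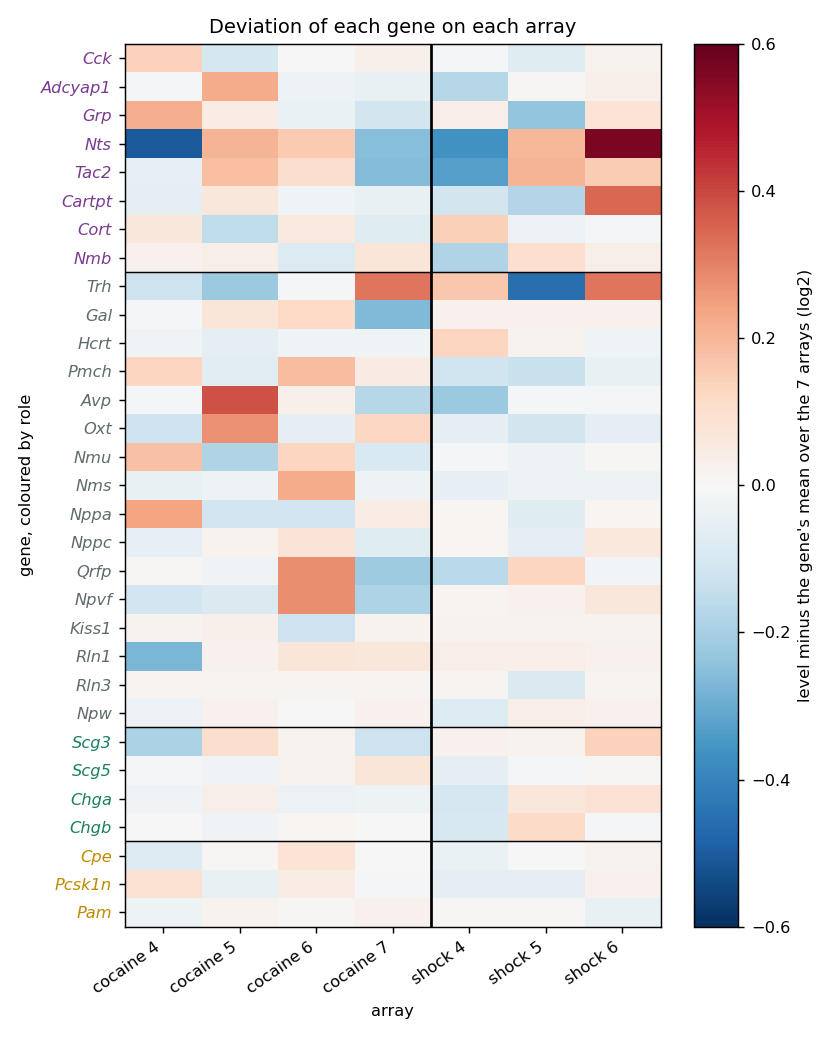
Deviation of each of 31 genes (rows, grouped by role) from its own mean over the 7 arrays (log2, colour), with cocaine arrays left of shock arrays. Red is above and blue below the mean. The strongest colours are those of Nts on cocaine array 4 and shock array 6, Trh on shock array 5 and Avp on cocaine array 5, and no column is of 1 colour.

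Summed over roles, single arrays rather than groups stood out. The mean deviation of the 8 cortical peptide genes was -0.022, 0.062, 0.018 and -0.086 on the cocaine arrays, against -0.12, -0.0011 and 0.15 on the shock arrays. Shock arrays 4 and 6 were the lowest and the highest of all 7. Inhibitory neuron markers, which mark cells that make several of these peptides, had mean deviations of -0.087, 0.036, -0.028 and -0.015 on the cocaine arrays, against -0.022, 0.015 and 0.10 on the shock arrays, and vascular markers -0.16, 0.031, 0.011 and -0.38 on the cocaine arrays, against 0.17, 0.028 and 0.29 on the shock arrays. Shock array 6 was the highest of the 7 for cortical peptides, inhibitory markers and vascular markers. The part of these cell types in the peptide values was not tested.

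**Figure D4:**
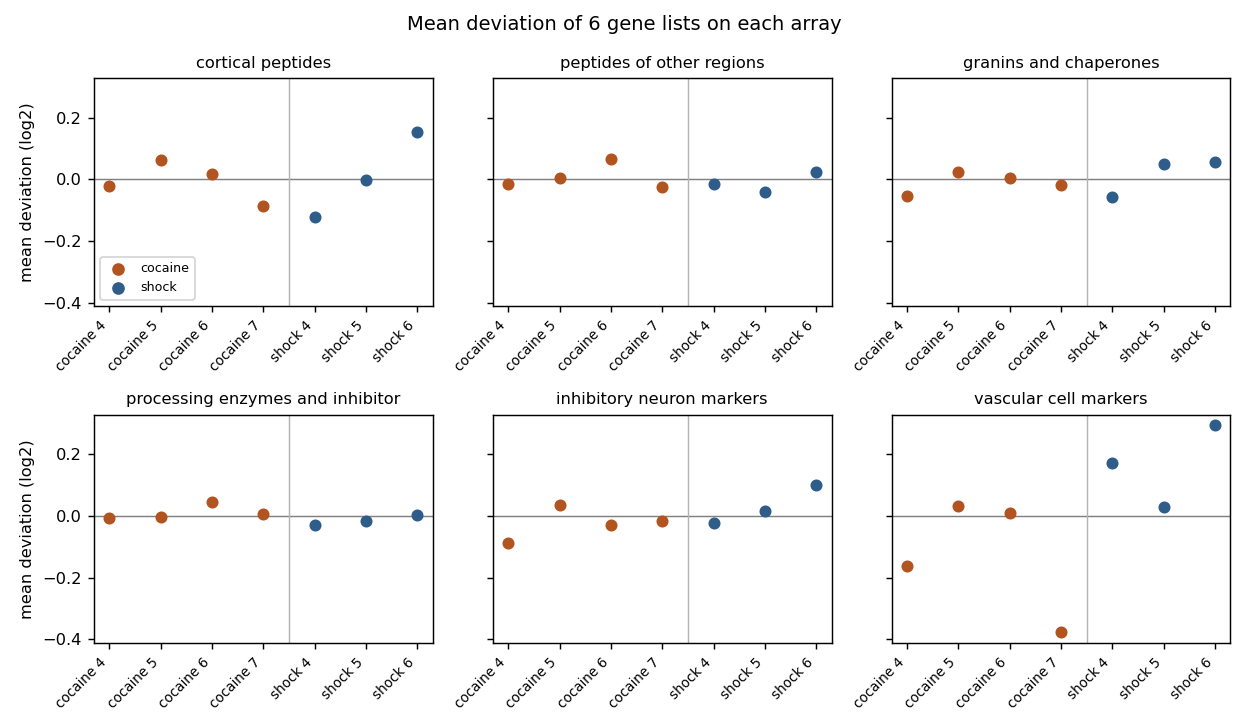
Mean deviation (log2, vertical axis) of 6 gene lists on each of the 7 arrays, cocaine left of shock. A point is the mean over a list's genes of the level minus that gene's mean. Shock array 6 is highest for cortical peptides (0.15), granins and chaperones (0.056), inhibitory markers (0.10) and vascular markers (0.29). The processing genes stay between -0.029 and 0.046.

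Further genes of the pathway, from 3 other lists, held 0 genes called by limma at the adjusted threshold. Of 30 other neuropeptide genes 13 were higher and 17 lower in the cocaine group, with a median of -0.024, and 0 had an unadjusted p under 0.05. Sst, for somatostatin of interneurons, read 11.78, 11.72, 11.67 and 11.46 on the cocaine arrays, against 11.84, 11.71 and 11.98 on the shock arrays, a difference of -0.19 (95% interval -0.41 to 0.042). Cocaine array 7 was lowest and shock array 6 highest, as for Npy, for neuropeptide Y, which read 9.17, 9.14, 8.97 and 8.83 on the cocaine arrays, against 9.09, 9.08 and 9.39 on the shock arrays. Leaving out either of these arrays gave -0.12 (cocaine array 7) or -0.12 (shock array 6) for Sst. The Npy difference of -0.15 was -0.054 without shock array 6. Tac1, for substance P, differed by 0.14 (limma unadjusted p = 0.0572, adjusted p = 0.938), and by 0.11 to 0.19 when each array was left out. Its unadjusted p was 0.0487 after quantile normalization, 0.0493 with dim genes left out, 0.0483 with trend and robust moderation and 0.0433 with array weights. It was 0.0636 after median centring and 0.0774 with the replicate block. Npb (neuropeptide B) and Pomc (pro-opiomelanocortin), both dim, differed by -0.25 and -0.11. The Npb difference was -0.16 without cocaine array 6, and that of Pomc -0.063 without shock array 5.

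Of 23 other dense-core vesicle and processing genes, 11 were higher and 12 lower in the cocaine group (median -0.0029), and 0 had an unadjusted p under 0.05. The convertase gene Pcsk1 read 8.51, 8.74, 8.57 and 8.59 on the cocaine arrays, against 8.40, 8.60 and 8.59 on the shock arrays, a difference of 0.071 (95% interval -0.10 to 0.25). Leaving out shock array 4 gave 0.0041, and leaving out cocaine array 5 gave 0.026. Vgf, a granin-like precursor induced by neurotrophins, read 10.14, 10.24, 10.26 and 10.31 on the cocaine arrays, against 9.81, 10.28 and 10.34 on the shock arrays. Shock array 4 was lowest by far, and the difference of 0.094 was -0.073 without it. Scg2, secretogranin II, differed by -0.0029, or -0.083 without shock array 4 and 0.0083 after median centring, and the convertase gene Furin by -0.015. The tyrosine sulphotransferases Tpst1 and Tpst2, which modify peptides such as cholecystokinin, differed by 0.093 and 0.10. The carboxypeptidase gene Cpz and the vesicle priming gene Cadps2 differed by -0.13 and -0.060. Leaving out cocaine array 6 gave -0.039 for Cpz and 0.052 for Tpst2, leaving out shock array 6 gave -0.0036 for Cadps2, and Tpst1 ran from 0.058 to 0.16 over the left-out arrays (highest with shock array 4 left out).

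Of 12 genes for peptidases that break peptides down, 5 were higher and 7 lower in the cocaine group (median -0.033). In limma 1 of the 12 had an unadjusted p under 0.05, against 3.1% of all genes. That gene was Ace, angiotensin-converting enzyme, with 7.51, 7.58, 7.46 and 7.58 on the cocaine arrays, against 7.61, 7.62 and 7.74 on the shock arrays. Its groups did not overlap, as held for 2.37% of all genes. The difference was -0.12 (SE 0.050, limma unadjusted p = 0.0460, adjusted p = 0.938). The unadjusted p of Ace in limma was 0.0898 after median centring, 0.0723 with array weights and 0.101 with the array number as a replicate block. It was also above 0.05 when cocaine array 4 (0.0924), cocaine array 6 (0.0873), shock array 5 (0.0569) or shock array 6 (0.143) was left out. Enpep, which cleaves angiotensin peptides, differed by -0.31, Ece1, the endothelin-converting enzyme, by -0.096, and Prep, prolyl endopeptidase, by 0.099. Ace, Enpep and Ece1 are also made by vessel cells, whose markers had lower means in the cocaine group as given above, and the part of those cells was not tested. The Enpep difference was -0.15 without shock array 6 and -0.19 without cocaine array 7, and that of Ece1 was -0.060 without shock array 5.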

How the data were processed

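Ribosome-bound RNA was measured on 7 one-colour Affymetrix arrays. The authors' deposited values were read as log2 expression of 41345 probe sets (1.12 to 13.44). Transcriptome Analysis Console is named, with no version, per the submitters' processing notes, and no summarization, background correction or filter is given in the sources used here. Array medians were 5.44 to 5.47, so a difference is relative to the rest of the array. Depth does not apply to arrays, whose number limits precision.

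Probe sets with 1 gene symbol (23521) were used, the 1 with the highest mean per gene. Cocaine minus shock was fitted with lmFit and eBayes of limma 3.58.1 (R 4.3.3), two-sided with no covariate, with Benjamini-Hochberg adjustment over 22180 genes. The code was tested on simulated data. Alternatives were quantile normalization, median centring, no dim genes, the mean of probe sets, trend and robust moderation, array weights, a replicate block and leaving out each array in turn.

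Members and lists were chosen with earlier results of these data known. All members are named. From each of 3 pathway lists the 4 genes of smallest unadjusted p are named, plus Npy, Sst, Pcsk1, Scg2, Vgf and Furin. Markers of 8 other lists were read for counts and mean deviations. Oligodendrocyte and microglia markers had median differences of 0.057 and -0.066, excitatory and inhibitory markers 0.0073 and -0.062, and hypothalamic factors 0.0047.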

Additional observations from a re-analysis of the deposited data

Results flagged for a closer look

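Among the 4 cocaine arrays, 1 array lay far from the others for 5 of 36 measures (31 genes and 5 mean deviations), judged by its gap to the nearest array as a share of the group's range and Dixon's 95% limit. Cocaine array 5 was highest for Adcyap1 (0.874) and lowest for Hcrt (1.0). Cocaine array 6 was highest for Nms (0.941) and lowest for Kiss1 (0.939), and cocaine array 4 was lowest for Rln1 (0.870). By chance about 5% of groups would pass, here 1.8 measures, if the measures were independent and had no ties. Hcrt had the same value on cocaine arrays 4, 6 and 7 (4.81, against 4.78 on array 5), so its ratio of 1.0 was fixed by the tie. Kiss1 had the same value on cocaine arrays 4 and 7, which favours a large gap. Groups of 3, as in shock, are too small for this rule.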

How the results depend on the processing

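Under each of the 14 alternatives limma's adjusted threshold called 0 genes, and so 0 of the 31, and the median difference of the 31 moved by less than the spread between arrays (-0.0086 to 0.028 with 1 array left out). Genes at an unadjusted p under 0.05 numbered 688, and 453 with dim genes left out, where fewer genes were tested. Of the 31 genes, 18 changed the sign of their difference in at least 1 of the fits without an array. With those whose difference moved by over 1.5 times counted too, it was 30 of 31, all but Pmch. The range over those fits was -0.0038 to 0.077 for Cck, -0.032 to 0.13 for Grp, -0.19 to 0.082 for Tac2, -0.13 to 0.13 for Cartpt, -0.054 to 0.085 for Nmb, -0.25 to 0.14 for Trh, -0.093 to 0.034 for Gal, -0.038 to 0.081 for Nmu, -0.046 to 0.071 for Nppa, -0.044 to 0.015 for Nppc, -0.061 to 0.10 for Qrfp, -0.048 to 0.0031 for Kiss1, -0.096 to 0.020 for Rln1, -0.029 to 0.032 for Npw, -0.092 to 0.0029 for Chga, -0.054 to 0.051 for Chgb, -0.018 to 0.036 for Cpe, -0.0024 to 0.028 for Pam, -0.083 to 0.078 for Scg2, -0.073 to 0.19 for Vgf and -0.021 to 0.0015 for Furin. Elsewhere 10 of the 48 named genes changed sign, and the cause was not tested. With array weights Cartpt differed by 0.0080, Trh by 0.017, Nmu by -0.010, Qrfp by -0.022, Cpe by -0.00025 and Scg2 by 0.021. Quantile normalization gave 0.0031 for Chgb and -0.00033 for Cpe, and median centring gave 0.0069 for Chgb and 0.0083 for Scg2. For the 6 dim genes, signal close to background limits what a difference can show.

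The array numbers 4, 5 and 6 occur in both groups. Deviations of same-numbered arrays from their group means correlated by 0.13, 0.064 and 0.16 over all genes. Those of different numbers among 4, 5 and 6 correlated by -0.097 to -0.019. Cocaine array 7 gave 0.038, 0.090 and -0.12 with shock arrays 4, 5 and 6. Not every same-numbered pair passed 0.1, and the numbers were not taken as pairs. Whether same-numbered arrays share a source was not tested, and the main fit makes no allowance for it. Each of the 3 shock arrays but array 5 correlated best with the cocaine array of its own number. With the number as a replicate block, 0 genes were called and 915 had an unadjusted p under 0.05. Under the replicate block Tac2 differed by 0.069, Gal by 0.034, Nppc by 0.0097 and Scg2 by 0.013. That fit also leaves out cocaine array 7. In it limma's unadjusted p fell for Npb (0.0695 to 0.0110), Avp (0.337 to 0.0693) and Nts (0.401 to 0.141). It rose for Oxt (0.228 to 0.401) and Npy (0.210 to 0.521).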

Other observations

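Some of these genes had exactly the same deposited value on several arrays. This held for 14 of the 31 genes, against 66.9% of all genes. Rln3 had 1 value on 6 arrays (5.65), Kiss1 on 5 (4.46) and Hcrt on 4 (4.81). Avp (8.40), Oxt (6.59), Pam (10.09), Nms (5.08) and Npw (6.05) each had 1 value on 3 arrays. Gal had 6.05 on all 3 shock arrays. Such ties set the spread of a group to 0 in places, as for Gal and Kiss1 in the shock group and Rln3 in the cocaine group. How they arose in the authors' processing was not tested.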
